A study of Mus musculus with 3 samples.

Results

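The genes described here are 6 chemokines (Cxcl1, Cxcl5, Cxcl12, Ccl2, Ccl7 and Cx3cl1), the scavenging chemokine receptor gene Ackr3 and the cyclooxygenase genes Ptgs1 and Ptgs2. They were read from every probe set whose annotated gene symbol was exactly one of these names, and the genes were selected on their signals in the same 3 arrays, so their responses to isoproterenol (ISO) are given as a description. Of the 9 genes, 8 had a probe set, with 16 probe sets among 45101 on the array, and the expression of Ptgs1 was not analysed here. The study set aside transcripts called absent at every time point and those with signals below 100. Detection calls were not used here. On some array 11 of the 16 probe sets came up to 100, at least 1 for each of the 8 genes.

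The cells were iBATs, immortalized brown preadipocytes of mouse that were differentiated in culture. By the study's methods, the stromal vascular cells of interscapular brown fat of newborn C57BL/6 mice were immortalized with SV40 large T antigen and selected with puromycin, and differentiation was started with insulin and indomethacin, a cyclooxygenase inhibitor, and continued in insulin. All 3 samples were at day 8 of differentiation and came from 1 cell line, 1 array each after 0, 1 and 2 h of ISO, which activates all β-adrenergic receptors (1 μM in the study's legends). Whether the 0 h cells received vehicle is not given in the sources used here. The adipocyte genes Fabp4 (7490.0 at 0 h), Adipoq (4986.4) and Cidea (788.1) were above 100 on every array. Ucp1, the uncoupling protein of brown fat, had signals of 1485.7, 3673.2 and 4166.1, with log2 ratios of 1.31 and 1.49, and was the 1 adipocyte marker past the threshold used below. Each time point has 1 array, so no error between replicates and no p-value can be given, and a call here is a size only, a ratio of at least 1.74-fold (0.8 on the log2 scale) in either direction.

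Chemokines are small secreted proteins that direct leukocyte movement through G protein-coupled receptors and are named by the spacing of their conserved cysteines. CXCL1 and CXCL5 attract neutrophils, CCL2 and CCL7 attract monocytes, CXCL12 retains stem and immune cells in their niches, and CX3CL1 is tethered to the cell surface until a protease sheds it. ACKR3 binds CXCL12 without classical G protein signalling and clears it from the surroundings. PTGS1 and PTGS2 catalyse the first committed step from arachidonic acid to prostaglandins, PTGS2 as the form that stimuli induce.

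The promoters of 4 of the genes are shown because their responses differ: Ptgs2, Cxcl1 and Ackr3 were called higher at both times, and Cxcl12 was called at neither. Each run is the 250 bases before the annotated start, from RefSeq (GRCm38.p6), written 5′ to 3′ on the strand of the gene, with matches to any of 8 searched motifs in capitals. The last run is a stretch of 27 bases after the start of Ptgs2 that holds its other matches.
Ptgs2, chr1:150099781-150100030, + strand: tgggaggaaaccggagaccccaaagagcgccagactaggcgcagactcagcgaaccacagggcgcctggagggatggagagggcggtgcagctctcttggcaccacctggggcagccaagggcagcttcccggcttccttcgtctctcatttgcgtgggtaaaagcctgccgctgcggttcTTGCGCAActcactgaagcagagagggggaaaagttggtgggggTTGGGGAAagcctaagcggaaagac
Cxcl1, chr5:90890995-90891244, + strand: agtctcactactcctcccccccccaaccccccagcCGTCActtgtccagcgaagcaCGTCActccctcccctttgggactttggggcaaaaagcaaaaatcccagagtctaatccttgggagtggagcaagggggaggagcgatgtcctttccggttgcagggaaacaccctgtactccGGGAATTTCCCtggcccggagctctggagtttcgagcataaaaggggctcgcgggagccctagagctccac
Ackr3, chr1:90203730-90203979, + strand: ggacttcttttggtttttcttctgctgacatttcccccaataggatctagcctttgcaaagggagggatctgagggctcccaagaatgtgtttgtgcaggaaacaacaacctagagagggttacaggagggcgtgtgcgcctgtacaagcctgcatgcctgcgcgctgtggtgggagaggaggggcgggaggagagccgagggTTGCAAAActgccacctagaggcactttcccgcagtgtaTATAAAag
Cxcl12, chr6:117168285-117168534, + strand: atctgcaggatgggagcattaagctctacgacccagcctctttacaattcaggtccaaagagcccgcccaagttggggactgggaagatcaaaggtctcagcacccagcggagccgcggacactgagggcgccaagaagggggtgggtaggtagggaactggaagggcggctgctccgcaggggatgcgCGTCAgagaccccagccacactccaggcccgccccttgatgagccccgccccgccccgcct
Ptgs2 site after the start, chr1:150100035-150100061, + strand: tcaccactaCGTCACGTGgagtccgct

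Motifs were searched on both strands in windows of 250 bases before to 50 bases after the start, in 32851 windows of the table. In Ptgs2 the C/EBP motif (TTNNGNAA, present in 40.7% of windows) was found at bases 69 to 62 and 25 to 18 before the start. The core of the cyclic AMP response element (TGACG, 20.8% of windows) was found at bases 14 to 18 after the start of Ptgs2, overlapping an E-box (CACGTG, 7.2% of windows) at bases 17 to 22. Cxcl1 held 2 of these cores, at bases 215 to 211 and 194 to 190 before the start, and the NF-κB consensus (4.5% of windows), which matched on both strands between bases 71 and 61. Ackr3 held a C/EBP match at bases 47 to 40 before the start. It also held the letters of the TATA box (TATAAA, 13.6% of windows) at bases 8 to 3 before the annotated start. Cxcl12, which was not called, also held a core, at bases 61 to 57.

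No window of these genes held the full element (TGACGTCA, 1.8% of windows, which contains the core), the AP-1 motif (TGANTCA, 7.8%) or the NR4A motif NBRE (AAAGGTCA, 1.5%). In Cx3cl1 the search found the letters of the TATA box alone, at bases 6 to 1 before the annotated start. A match is only a run of letters, and whether a factor binds there was not measured here. All positions are counted from the annotated start, and where transcription starts in these cells was not measured. The table held windows for 6 of the 9 genes, and not for Cxcl5, Ccl2 and Ccl7. The window of Ptgs1 held no match to any searched motif.

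Among the 8 genes read, Ptgs2, Ackr3 and Cxcl1 were called higher at 1 h of ISO, whereas 1.58% of 6896 genes read on the arrays were called higher. At 2 h, Cxcl5 and Cx3cl1 joined them, which made 5 of 8 against 2.73% of all genes. None of the 8 was called lower at 1 h, where 0.218% of all genes were, or at 2 h, where 0.812% were. The log2 ratios of the 8 had medians of 0.61 and 1.31 at the earlier and later time, and those of all genes had medians of -0.02 and -0.07. Nothing is read from these counts, because the genes were chosen with the ratios known and because Ptgs2, Ackr3, Cxcl5 and Cx3cl1 were below 100 at 0 h and passed the filter only through the arrays on which they were higher. Cxcl1, Cxcl12, Ccl2 and Ccl7 were at least 100 on all 3 arrays.

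**Figure D1:**
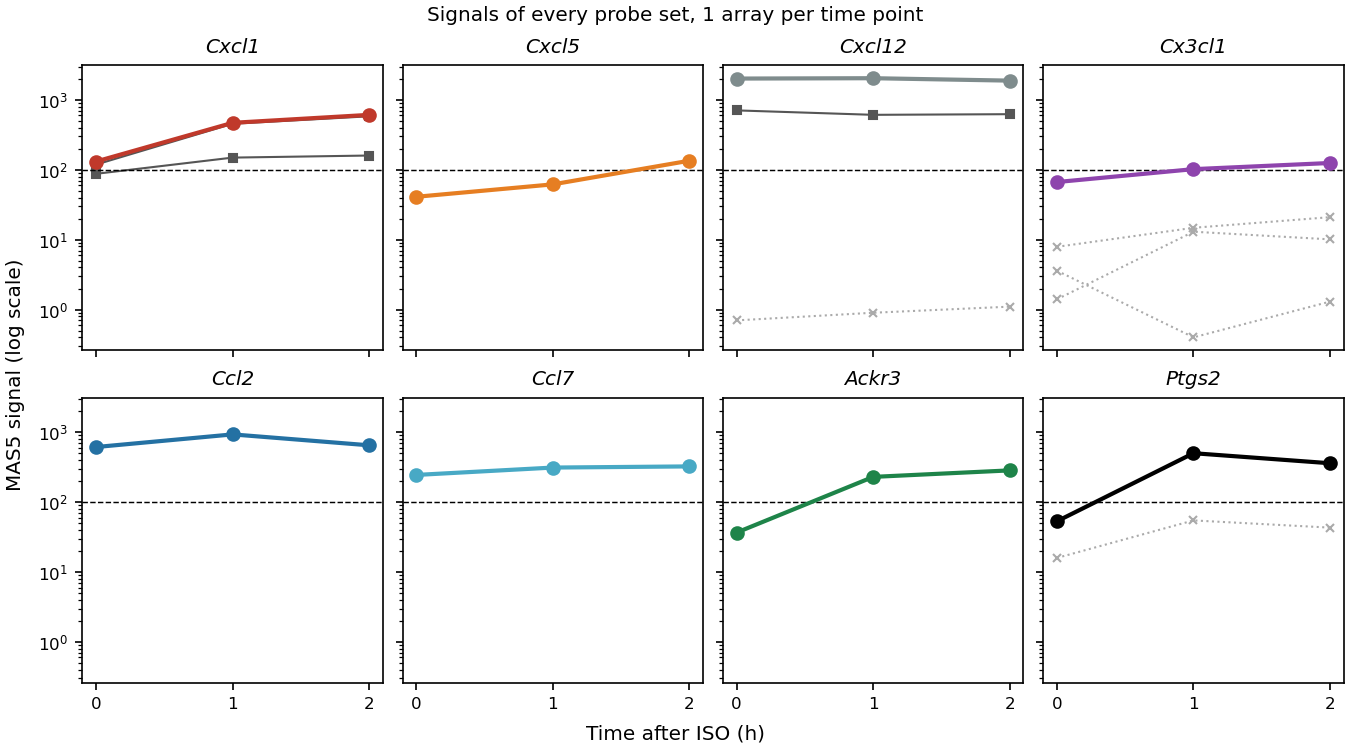
Time in ISO (h, horizontal axis) and MAS5 signal (vertical axis, logarithmic) of the 16 probe sets, with no error bars since each point is a single array. Coloured lines are the probe set that stands for the gene, dark grey squares other probe sets that reached 100 (one of Cxcl1 lies under the coloured line) and light grey crosses those that did not; the dashed line is 100. Ptgs2, Ackr3 and Cx3cl1 cross it between 0 and 1 h, and Cxcl5 between 1 and 2 h.

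Ptgs2, the inducible cyclooxygenase, was read from the brighter of its probe sets, whose signal was 53.2 before ISO, 501.9 at 1 h and 360.5 at 2 h. The 1 h array was the highest and the 2 h array lay between the others. Relative to 0 h the log2 ratios were 3.24 and 2.76, and that of 2 h over 1 h was -0.48, which did not pass. As the 0 h signal was below 100, the ratio depends on a dim value: taking 100 in its place leaves Ptgs2 at least 5.02-fold higher at 1 h and at least 3.61-fold higher at 2 h. The other probe set of Ptgs2, with signals of 15.9, 54.8 and 43.2, stayed below 100 on every array, so that no ratio is given for it.

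Around cyclooxygenase, the prostaglandin genes that were read had ratios below the threshold. Of 17 enzymes and transporters listed, 7 were read and none was called at either time, and their log2 ratios had medians of 0.16 and 0.12. Over all genes 1.58% were called higher at 1 h and 2.73% at 2 h. Nothing is therefore read from none being called among so few genes, here or in the lists below. Pla2g4a, the phospholipase that releases arachidonic acid, had signals of 432.5, 489.4 and 476.6. Cbr1, a carbonyl reductase that acts on prostaglandins, had the largest ratio at 1 h among the 7 genes read, a log2 ratio of 0.38 from 770.9 to 1001.3. Abcc4, an exporter of prostaglandins and cyclic nucleotides, went from 444.5 to 493.8 and 482.0. Ptges, the inducible prostaglandin E synthase, stayed below 100 with signals of 76.3, 88.6 and 85.4. All 9 prostanoid receptor genes on the list stayed below 100 on every array, with Ptgfr highest at 52.6. Most genes stayed below 100 as well: of 18194 with a probe set of 1 gene symbol, 6896 were read. Nothing is read from counts of genes below 100, here or further below.

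Ackr3, the scavenging receptor of CXCL12, went from a signal of 36.7 before ISO to 230.0 and then 284.9 on its 1 probe set. The 2 arrays after ISO were both above 200 and the 0 h array was the lowest. Its log2 ratios to 0 h were 2.65 and 2.96, and with 100 in place of the 0 h signal Ackr3 was at least 2.30-fold and 2.85-fold higher. The probe set carries a suffix for sequence that can be shared between transcripts, so that no reading of Ackr3 is left when such probe sets are dropped.

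Cxcl12, the ligand of ACKR3, had signals of 2022.2, 2046.1 and 1889.5 at 0, 1 and 2 h. The 3 arrays were close together, with log2 ratios of 0.02 and then -0.10. A second probe set that reached 100 had signals of 708.5, 612.1 and 625.3 and log2 ratios of -0.21 and -0.18, and the third stayed at or below 1.1. Cxcr4, the other receptor of CXCL12, had a highest signal of 5.8. Of 21 chemokine receptor genes listed besides Ackr3, 20 had a probe set and none reached 100 on any array, with the atypical receptor gene Ackr4 highest at 27.6. Of these receptor genes and Ackr3, only Ackr3 was read, and it reached 100 only on the arrays after ISO. At 0 h its signal (36.7) was below 100 too, and it was chosen with these signals known.

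Cxcl1, a neutrophil chemokine, had signals of 131.3, 470.3 and 611.4 on the successive arrays, all above 100. The signal was lowest before ISO and highest at 2 h, with log2 ratios of 1.84 and 2.22. All 3 probe sets of Cxcl1 were read. One of the others ran close to the first, at 118.7, 455.9 and 583.4 (log2 ratios 1.94 and 2.30), whereas the third went from 87.6 to 149.5 and 160.1 (0.77 and 0.87), so that it was below the threshold at 1 h and above it at 2 h. Both of these probe sets carry suffixes for shared sequence, and the first does not.

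Cxcl5, which shares its neutrophil receptor with CXCL1, had signals of 41.1, 61.9 and 135.0 at 0, 1 and 2 h. Only the 2 h array was above 100. The log2 ratios were 0.59 and 1.72, and Cxcl5 was the 1 gene of the 8 called higher in the second hour, at 1.12 for 2 h over 1 h, where 0.667% of all genes were called higher and 0.319% lower. With signals below 100 set to 100 the 2 h ratio was 0.43 and the call ended. Over all genes 67.6% of the calls in that hour were rises, and 56.2% when the arrays were scaled to the same median.

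Cx3cl1, the tethered chemokine, had signals of 66.8, 102.2 and 125.2 on the 1 probe set that reached 100. It was just inside the filter and just past the threshold at 2 h, with log2 ratios of 0.61 and 0.91, and with signals below 100 set to 100 these were 0.03 and 0.32. Its other 3 probe sets stayed at or below 21.0 and did not run alike: 2 had higher signals after ISO and one, at 3.6, 0.4 and 1.3, had lower ones. Among the probe sets left out, the nearest to 100 was the second one of Ptgs2 at 54.8, and among those read the nearest were those of Cx3cl1 at 125.2 and Cxcl5 at 135.0. The genes of the proteases that shed CX3CL1 were read and not called, with Adam10 at 625.3, 580.6 and 622.9 and Adam17 at 278.6, 276.7 and 232.1. Of 7 such shedding and chemokine-truncating proteases, 6 were read and none was called, among them Mme, a membrane peptidase, at 788.9, 717.5 and 737.4, and Cpd, a carboxypeptidase, at 599.0, 567.0 and 618.6.

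Ccl2, the main monocyte chemokine, had signals of 615.1, 932.7 and 651.3. It was highest at 1 h and nearly back at the 0 h signal at 2 h, with log2 ratios of 0.60 and 0.08, and of -0.52 for 2 h over 1 h. None of the 3 passed the threshold. Ccl7, its neighbour, had signals of 245.2, 312.7 and 324.9, with log2 ratios of 0.35 and 0.41. Both were above 100 on all arrays. Of the 8 genes, Ccl2 and Ptgs2 had their highest signal at 1 h on the probe set read, as did Cxcl12 by a small margin, and the other 5 had it at 2 h.

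**Figure D2:**
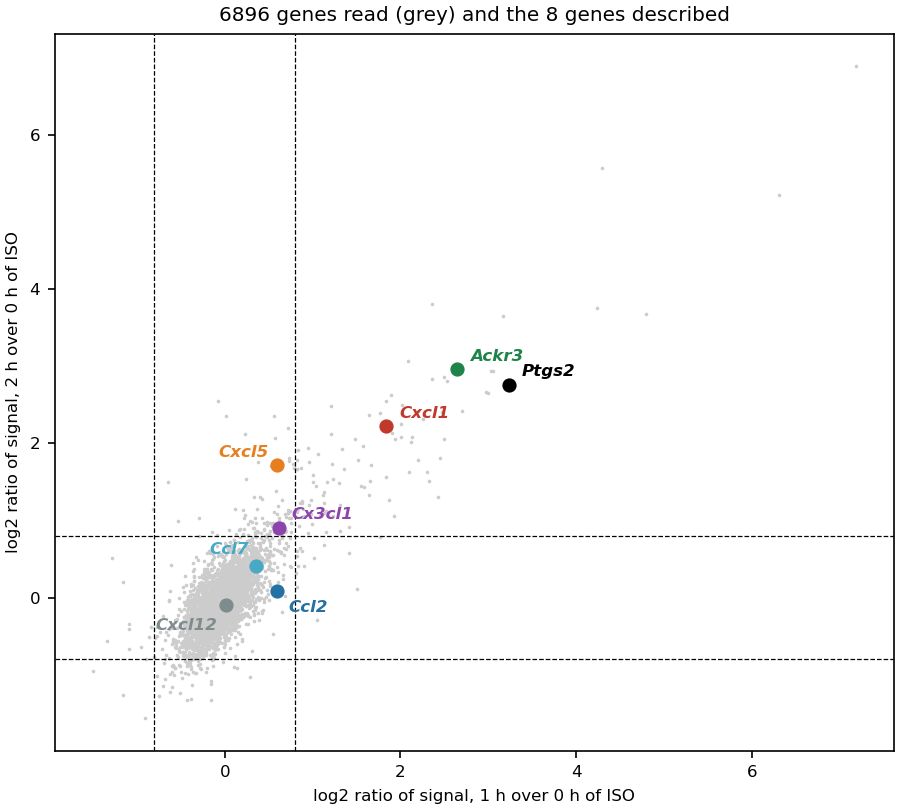
Log2 ratio of MAS5 signal at 1 h over 0 h (horizontal axis) and at 2 h over 0 h (vertical axis) for the 6896 genes read (grey points), with the 8 described in colour and named; each ratio rests on single arrays and both share that of 0 h. Dashed lines mark 0.8 in either direction: Ptgs2, Ackr3 and Cxcl1 lie past both, Cxcl5 and Cx3cl1 past the 2 h line alone, and Ccl2, Ccl7 and Cxcl12 inside both.

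With no replicates, the robust spread of log2 ratios over genes of similar mean signal gives a scale for these values, and it holds real change as well as noise. Nothing is tested with it, since the genes were chosen on the same ratios. For genes with a mean signal like that of Cxcl1 it was 0.15 at 1 h against 0 h and 0.21 for the later array. For the dimmest genes, which include Cxcl5 and Cx3cl1, it was 0.37 and 0.43. Ptgs2 and Ackr3 were as dim as those at 0 h, although their mean signals were higher.

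All but one of the chemokine genes stand beside other chemokine genes, most of which stayed below 100, and Cxcl12 stands alone. In the order of RefSeq genes, Cxcl5 and Cxcl1 belong to a run of 7 chemokine genes with Ppbp, Pf4, Cxcl3, Cxcl15 and Cxcl2. The other 5 stayed below 100, with Cxcl2 highest at 12.1, although CXCL2 and CXCL3 are the closest relatives of CXCL1. Ccl2 and Ccl7 open a run of 6, of which Ccl11, Ccl12, Ccl8 and Ccl1 stayed below 100. Cx3cl1 stands between Ccl22 (highest signal 7.1) and Ccl17 (10.6).

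Beyond these genes, 30 other chemokine ligands were listed, of which 29 had a probe set and 4 were read. None of the 4 was called at either time. Ccl5, a chemokine for T cells, had signals of 317.2, 375.6 and 293.7. Ccl9, which attracts myeloid cells, had 373.5, 406.3 and 483.1. Cxcl10, a chemokine induced by interferon, had 168.3, 219.6 and 205.0, and Ccl27a had 119.3, 108.6 and 76.5, a log2 ratio of -0.64 at 2 h. The lists were chosen with earlier results of these arrays known.

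**Figure D3:**
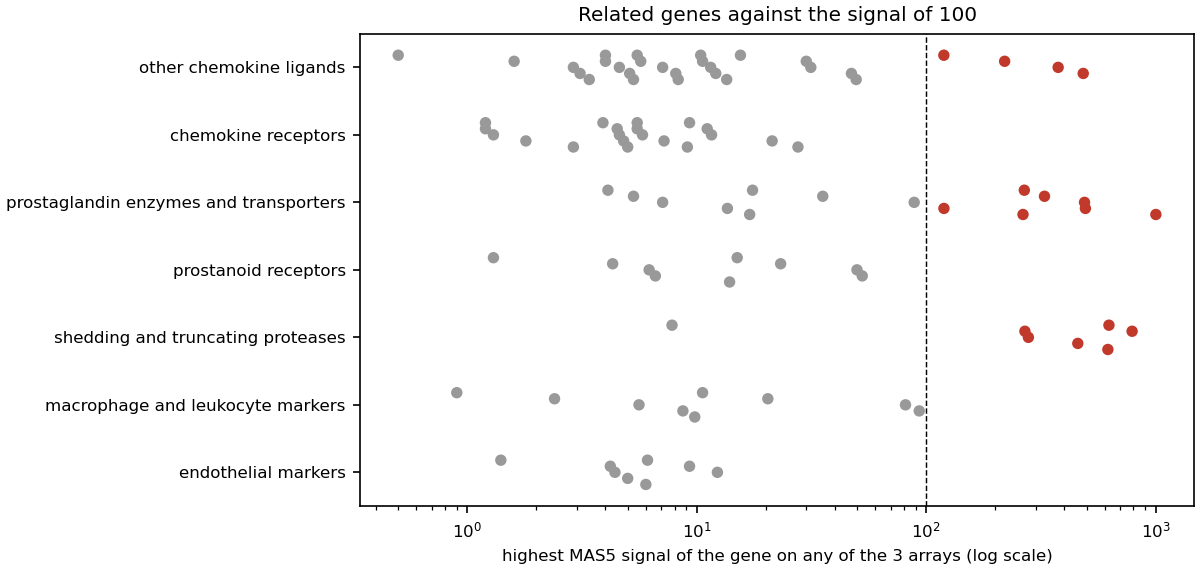
Highest MAS5 signal on any of the 3 arrays (horizontal axis, log scale) for each gene with a probe set in 7 lists (1 row per list, 1 point per gene, points shifted vertically for visibility). The dashed line is 100, red points reach it and grey ones do not; 4 other chemokine ligands, 7 prostaglandin enzymes or transporters and 6 proteases reach it, and no chemokine receptor, prostanoid receptor, leukocyte or endothelial marker does. Levels of different probe sets are not comparable with each other.

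The culture was checked for leukocyte and endothelial RNA, since these cells also make chemokines and cyclooxygenase. Of 10 macrophage and leukocyte markers 9 had a probe set and none reached 100, with summed signals of 147.9, 141.8 and 216.4 on the successive arrays. The pan-leukocyte gene Ptprc was at most at 0.9 and the macrophage gene Adgre1 at most at 9.8, and no marker was listed at 0. Cd14, a co-receptor for bacterial lipopolysaccharide, had signals of 34.6, 41.8 and 93.2. Cd68, a lysosomal protein, had 58.9, 54.5 and 81.2, and both were highest at 2 h. By contrast, Csf1r (20.4, 16.3 and 15.2) and Itgam (5.6, 3.3 and 2.8) were highest at 0 h. Itgax (8.7, 6.2 and 1.9) and Cd3e (2.4, 1.4 and 1.7) were highest there too. The part of leukocyte RNA in these results was not tested. The 8 endothelial markers summed to 39.3, 26.9 and 32.7.

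Preadipocyte and fibroblast markers were present, and such cells are known sources of CXCL12 and CCL2. Of 10 listed, 7 were read and none was called at either time, with a summed signal over 9 genes of 10153.6, 10416.1 and 9507.0. The collagen genes Col1a2 (4132.8, 4557.0 and 3934.4), Col3a1 (4038.3, 3981.2 and 3657.1) and Col1a1 (491.0, 517.9 and 556.2) were the brightest by mean signal. Pdgfra, a receptor of preadipocytes, had signals of 383.2, 339.3 and 382.2. Dlk1 was just above 100, at 124.3, 127.3 and 136.7. Thy1 and Cd34 stayed below 100, at most at 9.9 and 19.4. In a bulk culture, fewer cells of a type and less RNA per cell cannot be told apart, and which cells made each transcript was not measured.

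For each gene past the threshold, the 3 genes with the closest pair of log2 ratios among the 6896 were found, by Euclidean distance over the 3 arrays. The genes closest to Ptgs2 were Irs2 (distance 0.25), Ier3 (0.27) and Ddit4 (0.27). Irs2, an adaptor of the insulin receptor, had log2 ratios of 3.05 and 2.94. The genes closest to Ackr3 were Trib1 (0.18), Gem (0.18) and Pck1 (0.32). Gem, a small GTP-binding protein, had log2 ratios of 2.49 and 2.86.

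Closest to Cxcl1 were Fosl2 (0.11), Dusp5 (0.17) and Inhba (0.19). Fosl2, an AP-1 member, had log2 ratios of 1.91 and 2.13. Closest to Cxcl5 were Fam110c (0.04), Sbno2 (0.06) and Shb (0.15), all below 100 at 0 and 1 h and above it at 2 h. Closest to Cx3cl1 were B4galt1 (0.04), 3110001I22Rik (0.05) and Tubb2a (0.05). All these pairs of ratios share the 0 h array, and with 3 arrays a small distance is a description alone.

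**Figure D4:**
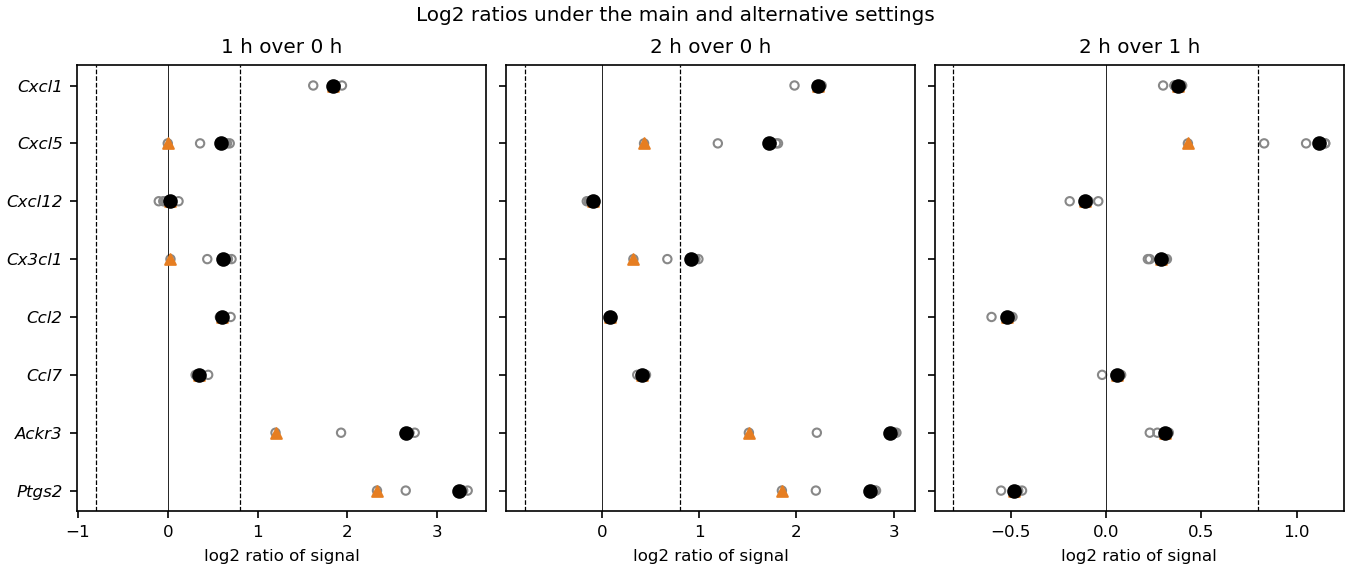
Log2 ratio of MAS5 signal (horizontal axis) of the 8 genes (1 row each) in the 3 comparisons between arrays. Black points are the values as reported, open circles the alternative settings, and orange triangles the setting in which signals below 100 were set to 100; dashed lines mark 0.8 in either direction. The triangles of Cxcl5 and Cx3cl1 fall inside the lines and those of Ptgs2, Ackr3 and Cxcl1 stay outside at 1 and 2 h over 0 h.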

How the data were processed

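Labelled RNA was hybridized by the authors to Affymetrix Mouse Genome arrays, and the deposited values are MAS5 signals, that is, an intensity on a linear scale, set by the authors to a mean of 100.0 on each array after 2% is trimmed from each end. The deposited table still holds the transcripts that the methods filter out. Of 45101 probe sets, 34958 carried 1 gene symbol, 932 several (not used), and 9211 were unnamed here. Those that came up to a signal of 100 on any array were kept (11317), and the one of highest mean signal was taken for each of 6896 genes. Log2 ratios were computed without further scaling (Python 3.11.15, numpy 2.4.6, pandas 2.3.3), with a signal of 0 set to 0.1, and tested on simulated data. Spread was 1.4826 times the median absolute deviation in 20 bins of mean signal. The number of arrays limits the precision, and no test was possible. The genes, lists and motifs were chosen with earlier results of these data known.

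Named were all genes of the group, the genes read of each list that passed the threshold, up to 3 others of highest mean signal, and the 3 genes closest in response. A few others (Ptges, Ptgfr, Cxcr4, Ackr4, Adam17, Pdgfra, Ccl27a and the leukocyte markers among them) were named after their values were seen. The 12 alternatives changed the filter, low signals, scaling (including the cyclic loess of limma 3.58.1, R 4.3.3), probe sets or threshold. Figures were drawn with matplotlib 3.10.9.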

Additional observations from a re-analysis of the deposited data

How the results depend on the processing

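Other filters, leaving out suffixed probe sets and a 2-fold threshold left the ratio of every gene still read as it was, so they bear on which genes are counted. Over all alternatives, called ratios of Cxcl5 and Cx3cl1 fell below the threshold in 5 cases, and no called ratio changed sign. With at least 100 required on all 3 arrays, 4 of the genes are read and Cxcl1 alone is called, so that the genes called higher number 1 at 1 h, 1 at 2 h and 0 for 2 h over 1 h; the filter removes Ptgs2, Ackr3, Cxcl5 and Cx3cl1. At 2 h, 3 are called with at least 200 on 1 or more arrays and 3 with signals below 100 set to 100 (Cxcl1, Ackr3 and Ptgs2), and in both settings 0 are called for 2 h over 1 h. The call of Cx3cl1 at 2 h also ends with 32 added to each signal (0.67) and at a threshold of 2-fold. Over the alternatives Ptgs2 was at 2.33 to 3.34 at 1 h and 1.85 to 2.82 at 2 h, Ackr3 at 1.20 to 2.75 and 1.51 to 3.03, and Cxcl1 at 1.62 to 1.94 and 1.98 to 2.26. The uncalled ratios of Cxcl12 at 1 h (-0.10 to 0.12) and of Ccl7 for 2 h over 1 h (-0.02 to 0.08) took either sign. Scaling to the same median moved the median log2 ratio of all genes from -0.02 to 0.08 at 1 h.

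Over all genes, 109 were higher and 15 lower at 1 h, 188 and 56 at 2 h, and 46 and 22 for 2 h over 1 h. These were 56 and 5, 109 and 12, and 15 and 6 with at least 100 on all 3 arrays. Without a filter, over 18194 genes, they were 2181 and 2188, 2410 and 2164, and 2273 and 1973. Between these the falls at 1 h were 8 with 200 required, 32 added or a 2-fold threshold, 9 with low signals set to 100 and 28 with any kept probe set. The falls at 2 h were 16 with 200 required, 22 with low signals set to 100, 21 with 32 added and 17 at 2-fold. For 2 h over 1 h the rises and falls were 23 and 11 with 200 required, 27 and 11 with low signals set to 100, 29 and 10 with 32 added and 26 and 10 at 2-fold, and the rises were 77 with any kept probe set. No paired analysis was possible because each time point has 1 array.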

Other observations

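Some receptor and enzyme genes of these pathways that stayed below 100 had higher signals after ISO, and they were named after their values were seen. Ptgfr, the prostaglandin F receptor, had signals of 23.8, 45.2 and 52.6 at 0, 1 and 2 h. Ccrl2, which binds the chemoattractant chemerin, had 6.4, 19.0 and 21.3, and Tbxas1, the thromboxane synthase, had 1.1, 15.8 and 17.5. Others of the same lists, also named after their values were seen, had lower signals after ISO. Among them were Ptgir (49.9, 47.9 and 39.8), Ptger4 (23.2, 17.0 and 15.6) and Hpgd (17.0, 5.6 and 10.8). No ratio is given for signals below 100 on every array.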
